A study of Homo sapiens with 12 samples.

Results

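The step from mesoderm to hemogenic endothelium was described from bulk RNA-seq of sorted cells: CD31+CD34+ cells, the hemogenic endothelial progenitors (HEPs) of the study, were set against the APLNR+ mesoderm cells that came before them. The comparison took 3 libraries of each population, 6 of the 12 libraries of the series. The other 6 libraries were undifferentiated H1 cells and CD43+ hematopoietic progenitor cells (HPCs), 3 each, and their levels stand beside the comparison where they help to place it. H1 is an established human embryonic stem cell line, and the labels name it as the source of every population and give no genetic change in any.

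Differentiation ran in Custom mTeSR1, a stem cell medium. Cells of both populations received activin A and BMP4 for the first 2 days. APLNR+ cells were collected at day 2, at the end of that phase. CD31+CD34+ cells were collected at day 5, after the medium had been changed to one with VEGF and basic FGF. Marker, day and growth factors therefore differed together between the populations and cannot be told apart. CD31 is the product of PECAM1, and the antigens that defined the populations chose the cells, so their transcripts describe the sort and are not findings. In bulk samples, fewer cells of a type and less RNA per cell cannot be told apart. The labels do not say whether the 3 libraries of a population came from separate cultures, so p values measure only the spread between these libraries.

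Mesoderm leaves the primitive streak under Nodal, Wnt and BMP signals, with T-box and homeodomain factors such as EOMES, MESP1 and MIXL1 as its best known regulators. Part of the lateral plate mesoderm takes an endothelial fate under VEGF and ETS family factors, and binds itself into vessels with VE-cadherin junctions. Hemogenic endothelium is the endothelium that also carries TAL1, LMO2, GATA2 and RUNX1, a set of factors needed for blood cells to emerge from the vessel wall.

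Levels are given as FPKM, a read measure that corrects for the length of a transcript and for the size of a library, always in the order of replicates 1, 2 and 3. A difference is the log2 change of FPKM + 1, CD31+CD34+ minus APLNR+, with its standard error (SE, n = 3 libraries against 3) and the Benjamini-Hochberg adjusted p of limma. On this scale the change of a gene with low FPKM is understated. Raised and lowered genes are those past both thresholds, 0.05 for the adjusted p and 2-fold for the size. Of 13362 genes that reached 1 FPKM in at least 3 of the 6 libraries, 1850 rose and 2519 fell in the CD31+CD34+ cells, which is 13.8% and 18.9% of the genes tested (32.7% in all). A gene could pass this filter through the libraries of a single population, so counts and medians of gene lists are descriptions. Of the 4369 called genes, 4237 were also called with replicates 2 and 3 alone and 3777 in every fit that left out a single library. The median change over all genes was -0.00 on the log2 scale. The mean FPKM was at least 10-fold higher for 344 of the raised genes and at least 10-fold lower for 211 of the lowered genes. The libraries of the populations did not overlap for 78.2% of all genes tested, so that non-overlap alone sets few genes apart.

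The sort was visible in the markers, with an exception for the mesoderm antigen. PECAM1, an adhesion receptor of endothelial junctions, stood at 0.142, 0.00147 and 0.155 FPKM in the APLNR+ libraries and 50.9, 59 and 55.6 FPKM in the CD31+CD34+ libraries. CD34, a sialomucin of endothelial and blood progenitors, stood at 0.942, 1.12 and 0.880 FPKM in the APLNR+ libraries and 39.8, 53.4 and 49.99 FPKM in the CD31+CD34+ libraries. APLNR, the apelin receptor by which the mesoderm cells were sorted, stood at 388, 402 and 359 FPKM in the APLNR+ libraries and 381, 429 and 398 FPKM in the CD31+CD34+ libraries. CD31 and CD34 transcripts thus separated the populations without overlap, while the ranges of APLNR overlapped. The APLNR comparison (log2 difference 0.07 ± 0.10, adjusted p = 0.515) had a 95% interval from -0.15 to 0.29. In a fit that removed a trend with the GC content of transcripts the difference was -0.42 (limma adjusted p = 3.89e-04), short of 2-fold. With means of 0.528 FPKM in H1 and 23.7 FPKM in CD43+ cells, APLNR was highest in the populations compared here. The transcript of its ligand apelin, APLN, was close to absent in the mesoderm at 0.0153, 0.0164 and 0.0462 FPKM and reached 22.4, 26.6 and 23.7 FPKM in the CD31+CD34+ libraries (log2 difference 4.62 ± 0.11, adjusted p = 2.07e-08). APELA, the other ligand of the receptor, was lowered from 5.62 to 1.22 FPKM (log2 difference -1.56 ± 0.17, adjusted p = 4.72e-05), and this call was lost in the fit with the GC trend removed. The 3 markers of endothelium that were not used for sorting had the 3 largest rises among protein-coding genes whose libraries did not overlap. A higher mean of at least 10 FPKM was a further condition of that ranking. Members were chosen with earlier results of these data known, so the rank is a description. PLVAP, which forms the diaphragms of endothelial fenestrae, stood at 0.271, 0.00472 and 0 FPKM in the APLNR+ libraries and 181, 255 and 224 FPKM in the CD31+CD34+ libraries (log2 difference 7.66 ± 0.16, adjusted p = 1.12e-08). CDH5, VE-cadherin, stood at 0.105, 0.0387 and 0.0332 FPKM in the APLNR+ libraries and 79.1, 108 and 103 FPKM in the CD31+CD34+ libraries (log2 difference 6.52 ± 0.13, adjusted p = 1.23e-08). TAL1, the bHLH factor required for blood formation, stood at 0.0581, 0.0375 and 0.0104 FPKM in the APLNR+ libraries and 87.1, 82.7 and 78.8 FPKM in the CD31+CD34+ libraries (log2 difference 6.34 ± 0.10, adjusted p = 4.69e-09). None of these 3 genes reached 0.3 FPKM in any APLNR+ library. With 3 libraries against 3, an exact two-sided permutation test cannot give a p under 0.1, and it gave 0.1 for each marker but APLNR.

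**Figure D1:**
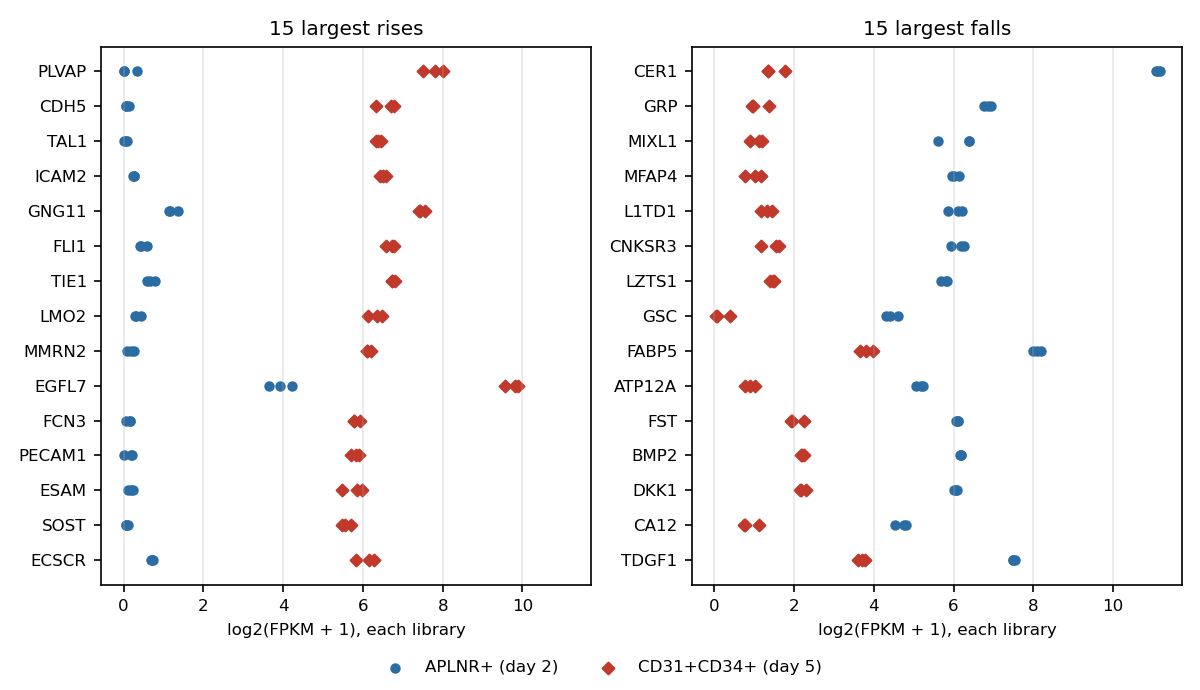
Levels of the 15 protein-coding genes with the largest rise and the 15 with the largest fall from APLNR+ (blue circles, day 2) to CD31+CD34+ cells (red diamonds, day 5), as log2(FPKM + 1) with 1 point per library. No library of one population overlaps the other for these genes, which was a condition for choosing them. EGFL7 and GNG11 are the raised genes with the highest APLNR+ levels.

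Promoters of genes at both ends of the comparison are shown so that the motif shares can be read against actual letters, and each window is the stretch of 250 bases before the start site, read 5′ to 3′ on the strand of the gene. They come from RefSeq on build GRCh38.p14. Capitals mark matches, on either strand, to CAGGAA (a form of the ETS site), CAGATG (the E-box that TAL1 dimers can bind), ACAAAG (SOX), AGGTGT (T-box), GGGCGG (GC box) and AGATAA, which GATA1 and its relatives bind. The GGAA core of ETS sites is neither marked nor counted where other letters precede it. The PLVAP window lies at chr19:17377343-17377592, minus strand, the TAL1 window at chr1:47232336-47232585, minus strand, the CER1 window at chr9:14722734-14722983, minus strand and the MIXL1 window at chr1:226223414-226223663, plus strand. Among protein-coding genes ranked without overlap of libraries, PLVAP and TAL1 are in the 3 largest rises, and CER1 and MIXL1 in the 3 largest falls.
PLVAP: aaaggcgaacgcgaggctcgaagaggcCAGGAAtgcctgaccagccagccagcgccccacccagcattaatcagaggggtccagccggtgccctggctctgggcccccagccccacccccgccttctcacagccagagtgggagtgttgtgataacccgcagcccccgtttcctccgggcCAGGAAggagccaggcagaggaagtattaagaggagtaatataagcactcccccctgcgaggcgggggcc
TAL1: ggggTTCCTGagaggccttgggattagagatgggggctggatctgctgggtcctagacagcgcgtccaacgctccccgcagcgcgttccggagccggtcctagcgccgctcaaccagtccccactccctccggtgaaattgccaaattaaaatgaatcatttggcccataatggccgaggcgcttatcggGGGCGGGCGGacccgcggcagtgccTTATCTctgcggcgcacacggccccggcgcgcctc
CER1: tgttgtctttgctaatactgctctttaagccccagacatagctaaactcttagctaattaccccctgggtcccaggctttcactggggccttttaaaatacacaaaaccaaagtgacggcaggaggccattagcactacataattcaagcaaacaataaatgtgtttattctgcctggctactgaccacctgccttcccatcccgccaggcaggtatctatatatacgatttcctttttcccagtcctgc
MIXL1: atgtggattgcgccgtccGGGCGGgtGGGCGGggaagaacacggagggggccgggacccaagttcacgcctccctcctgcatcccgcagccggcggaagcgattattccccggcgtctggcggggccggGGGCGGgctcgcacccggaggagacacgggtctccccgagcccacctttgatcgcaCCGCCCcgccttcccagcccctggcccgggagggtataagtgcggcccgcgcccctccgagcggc
The PLVAP window held 2 ETS matches and no other motif. The TAL1 window held 1 ETS match, 1 GATA match and 2 GC boxes. The CER1 window held none of the 6 motifs, and the MIXL1 window held 4 GC boxes alone. Of the genes tested, 9660 had a window in the table. An ETS match was found in 23.5% of the 1363 raised genes with a window, in 20.4% of the 1823 lowered genes, in 20.5% of all tested genes and in 24.1% of the 27305 genes in the table. GATA matches stood in 5.58%, 5.21%, 4.59% and 9.37% of the same sets, and E-box matches in 8.07%, 7.73%, 7.82% and 12.2%. SOX matches stood in 9.10%, 10.3%, 8.98% and 13.7%, T-box matches in 6.38%, 7.02%, 7.27% and 9.66%, and GC boxes in 67.4%, 64.7%, 68.3% and 42.3%. These are shares of letters and were not tested.

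The size of a change followed the base composition of the transcript, which touches every gene group. When 13153 genes with a GENCODE transcript were ranked by GC content and split into 10 equal classes, the median log2 change ran from -1.07 in the lowest class (median GC 37.2%) to 0.72 in the highest (64.2%). In the lowest class 53.8% of the genes were lowered and 1.52% raised, and in the highest class 33.1% were raised and 3.57% lowered. The Spearman correlation between change and GC content was 0.61 across these genes, which share the same 6 libraries and are not independent. The pattern was present in all 9 pairings of an APLNR+ with a CD31+CD34+ library, with the lowest class between -1.23 and -0.89. It was much smaller in the neighbouring steps: from H1 to APLNR+ the lowest and highest classes had medians of -0.19 and -0.01, and from CD31+CD34+ to CD43+ 0.18 and -0.32. These steps share libraries with the comparison. Libraries of the same population also differed by GC content, with Spearman correlations between -0.55 and -0.14 over the 6 pairs of such libraries, the higher replicate number minus the lower. The cause of the trend was not tested. A fit with the loess trend on GC content removed from each library, added after the data were seen, called 1271 genes raised and 1318 lowered (9.66% and 10% of 13153, 19.7% in all). It kept the call of 905 of the 1833 raised genes with a GC value and of 977 of the 2477 lowered ones, and it reversed 0. A count "with the trend removed" comes from this fit, over the members with a GC value. A gene can belong to more than 1 group.

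**Figure D2:**
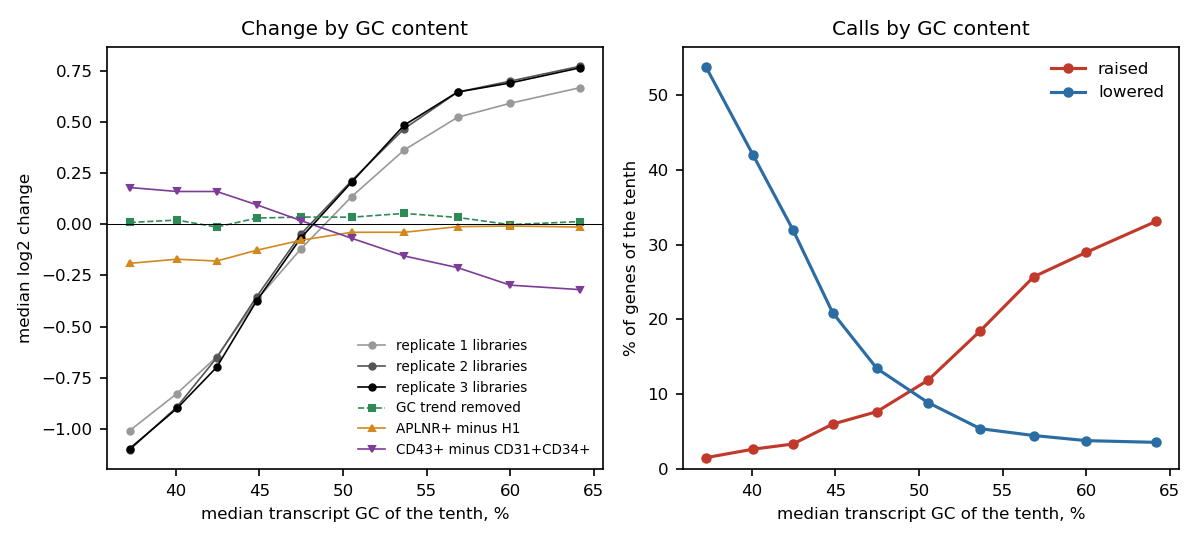
Left, median log2 change per class of genes ranked by transcript GC content (x axis, median GC in percent), for the replicate 1, 2 and 3 libraries, for the fit with the GC trend removed, and for the steps before and after. Right, percent of the genes of each class raised (red) and lowered (blue), which crosses from 53.8% lowered at the low end to 33.1% raised at the high end.

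Transcription factors of endothelium and blood rose in the CD31+CD34+ cells. Of 54 such factors, 45 were tested, 27 rose and 1 fell, with a median log2 change of 1.51 beside -0.00 for all genes. With the trend removed, 28 rose and 2 fell. TAL1, LMO2, FLI1 and ERG were among the members that passed the filter only through the CD31+CD34+ libraries, so the counts and median are a description. FLI1, an ETS factor of endothelium and megakaryocytes, stood at 0.494, 0.346 and 0.322 FPKM in the APLNR+ libraries and 94.6, 109 and 105 FPKM in the CD31+CD34+ libraries (log2 difference 6.23 ± 0.11, adjusted p = 5.32e-09). LMO2, the adaptor that joins TAL1 to GATA factors, stood at 0.359, 0.217 and 0.233 FPKM in the APLNR+ libraries and 68.7, 87.9 and 81 FPKM in the CD31+CD34+ libraries (log2 difference 5.98 ± 0.12, adjusted p = 1.12e-08). ERG, another ETS factor of endothelium, stood at 0.0904, 0.164 and 0.124 FPKM in the APLNR+ libraries and 26.5, 35.6 and 32.5 FPKM in the CD31+CD34+ libraries (log2 difference 4.84 ± 0.13, adjusted p = 3.60e-08). All 3 were under 0.5 FPKM in each mesoderm library and far above it, without overlap, in each CD31+CD34+ library. GATA2, needed for the endothelial to hematopoietic transition, was raised from 4.71 to 50.3 FPKM (log2 difference 3.16 ± 0.12, adjusted p = 1.86e-07). RUNX1, the factor that drives that transition, was raised from 1.95 to 9.29 FPKM (log2 difference 1.80 ± 0.11, adjusted p = 2.05e-06). GFI1 and GFI1B, repressors that silence endothelial genes downstream of RUNX1, were raised from 0.350 to 22.9 FPKM and from 0.0779 to 23.7 FPKM. LYL1, the closest relative of TAL1, was raised from 1.48 to 56.5 FPKM and HHEX, a homeodomain factor of early endothelium and blood, from 0.797 to 19 FPKM. SOX7 and SOX18, SOXF factors of endothelium, were raised from 0.111 to 14 FPKM and from 0.168 to 3.20 FPKM, whereas SOX17, their relative linked to arterial fate, went from 17.5 to 24.2 FPKM and was not called (log2 difference 0.44 ± 0.14, adjusted p = 0.0173). ETV2, the ETS factor that opens the endothelial program, was raised from 0.917 to 4.61 FPKM (log2 difference 1.57 ± 0.25, adjusted p = 4.19e-04), but its change was 0.85 and not called with the trend removed. The lineage factor GATA1 of red cells and megakaryocytes stood at 1.34, 2.30 and 1.84 FPKM (log2 difference 1.47 ± 0.13, adjusted p = 1.54e-05), against a mean of 56 FPKM in CD43+ cells, and it also lost its call with the trend removed. KLF1, an erythroid factor, was raised from 1.56 to 19.3 FPKM and MEF2C, a factor of endothelium and heart, from 0.381 to 11.9 FPKM. The only factor of the group that fell with the trend kept was TCF4, an E-protein, from 129.8 to 41.9 FPKM (log2 difference -1.64 ± 0.31, adjusted p = 0.00118), and its change of -0.64 with the trend removed was not called. The 2 factors that fell with the trend removed were thus other members. The other E-proteins of the list were not called, as TCF3 went from 48.8 to 60.9 FPKM and TCF12 from 55.6 to 56.8 FPKM. Of the 9 factors that did not reach the filter, MECOM and HLF, both tied to blood stem cells, averaged 0.822 and 0.1 FPKM, and SPI1, the myeloid factor, 0.474 FPKM in the CD31+CD34+ cells.

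**Figure D3:**
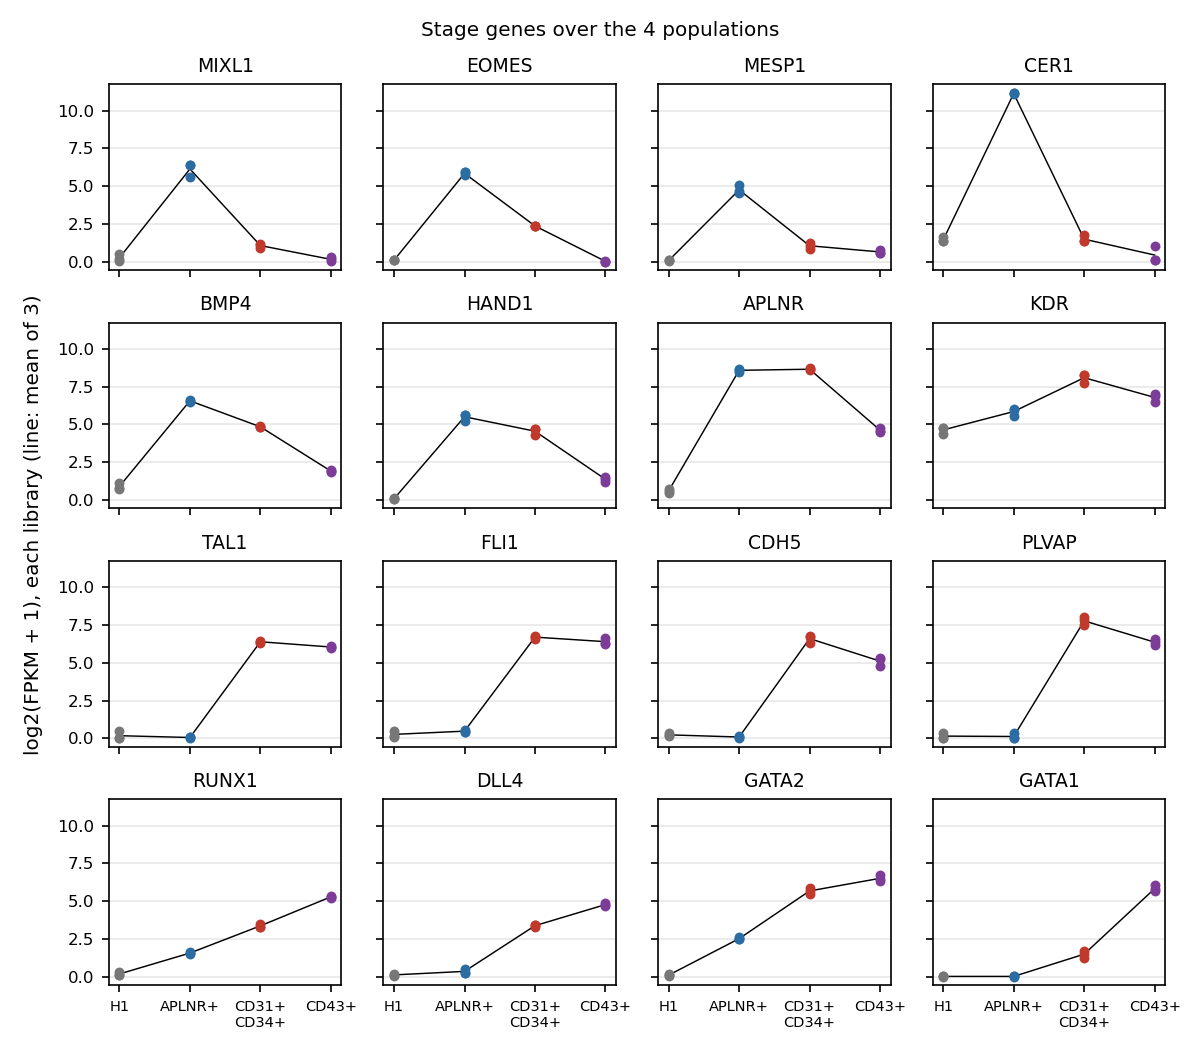
Levels of 16 stage genes in each of the 12 libraries, as log2(FPKM + 1), over H1, APLNR+, CD31+CD34+ and CD43+ cells, with a line through the mean of 3. MIXL1, EOMES, MESP1 and CER1 peak in APLNR+ cells, APLNR overlaps between both middle populations, TAL1, FLI1, CDH5 and PLVAP are near 0 in H1 and APLNR+ and high in CD31+CD34+ cells, and GATA1 has its highest level in CD43+ cells.

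Surface and junction genes of endothelium rose with them. Of 43 listed, 37 were tested, 29 rose and 2 fell, with a median log2 change of 2.57, and 26 rose and 1 fell with the trend removed. Here too, members such as CDH5, PLVAP and ICAM2 passed the filter only through the CD31+CD34+ libraries. ICAM2, an adhesion molecule that endothelium displays constitutively, stood at 0.196, 0.188 and 0.168 FPKM in the APLNR+ libraries and 84.9, 94.5 and 89.3 FPKM in the CD31+CD34+ libraries (log2 difference 6.26 ± 0.10, adjusted p = 4.69e-09). MMRN2, a matrix protein that endothelium secretes, stood at 0.190, 0.143 and 0.0552 FPKM in the APLNR+ libraries and 67.9, 72.1 and 67.8 FPKM in the CD31+CD34+ libraries. ESAM and ECSCR, receptors of endothelial contacts, were raised from 0.129 to 53.8 FPKM and from 0.637 to 67.2 FPKM. STAB1, a scavenger receptor of sinusoidal endothelium, was raised from 0.168 to 45.9 FPKM. The arterial connexins GJA5 and GJA4 rose from 2.33 to 37.8 FPKM and from 1.19 to 23 FPKM, while GJA1, the connexin with the broadest expression, went the other way at 207, 265 and 266 FPKM in the APLNR+ libraries and 38.3, 50.2 and 50.1 FPKM in the CD31+CD34+ libraries (log2 difference -2.39 ± 0.14, adjusted p = 1.92e-06). CAV1, the caveolar coat protein of mature endothelium, was lowered from 2.69 to 0.681 FPKM (log2 difference -1.17 ± 0.19, adjusted p = 5.20e-04) but was not called without CD31+CD34+ replicate 1 (-0.95) or with the trend removed (-0.93). MCAM and JAM3, present in mesoderm already, rose from 23 to 131 FPKM and from 22 to 144 FPKM. The tight junction gene CLDN5 of brain endothelium reached a mean of 1.64 FPKM, and EMCN, LYVE1, VCAM1 and STAB2, markers of venous, lymphatic, inflamed or sinusoidal endothelium, were all under 0.5 FPKM on average in the CD31+CD34+ cells. 

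Receptors and secreted proteins of endothelial signaling made up another group of 49 genes, of which 41 were tested, 29 rose and 3 fell (median 2.11). With the trend removed, 30 rose and 0 fell. Some members, TIE1 and RASIP1 among them, passed the filter only through the CD31+CD34+ libraries. TIE1, an orphan receptor of the angiopoietin system, stood at 0.513, 0.738 and 0.589 FPKM in the APLNR+ libraries and 106, 110.4 and 104 FPKM in the CD31+CD34+ libraries (log2 difference 6.06 ± 0.10, adjusted p = 5.04e-09). EGFL7, a secreted protein of growing vessels and host of a microRNA, was the most abundant of the group at 17.5, 14 and 11.5 FPKM in the APLNR+ libraries and 942, 898 and 754 FPKM in the CD31+CD34+ libraries (log2 difference 5.83 ± 0.16, adjusted p = 3.60e-08). TEK, the angiopoietin receptor, rose from 4.14 to 53.5 FPKM. Its ligands did not follow: ANGPT1 went from 1.12 to 0.160 FPKM, which was called with a pseudocount of 0.1 or 0.5 but not of 1, and ANGPT2 fell from 5.08 to 1.31 FPKM, a fall that was not called with the trend removed. The VEGF receptors KDR, FLT1 and FLT4 rose from 57.3 to 277 FPKM, from 10.7 to 65.4 FPKM and from 0.820 to 22.4 FPKM. KDR was high in mesoderm as well, at 46.6, 63.7 and 61.7 FPKM, and none of its CD31+CD34+ libraries at 209.9, 310.3 and 309 FPKM overlapped them. NRP1 and NRP2, coreceptors of VEGF, rose from 18.6 to 52.8 FPKM and from 47.9 to 149 FPKM. The ligands VEGFA, VEGFB and PGF went from 6.65 to 5.26 FPKM, from 16 to 17.8 FPKM and from 10.1 to 10.1 FPKM and were not called. NOS3, the endothelial nitric oxide synthase, rose from 1.77 to 40.7 FPKM and RASIP1, which vessels need to form lumens, from 0.560 to 50.8 FPKM. The hemostasis genes VWF, TFPI and PROCR rose from 0.653 to 10.4 FPKM, from 2.35 to 30.5 FPKM and from 10.2 to 74.7 FPKM. CALCRL and its partner RAMP2, the adrenomedullin receptor, rose from 0.152 to 6.54 FPKM and from 2.35 to 19.3 FPKM.

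The mesoderm program fell. Of 35 primitive streak and early mesoderm genes, 29 were tested, 20 fell and 2 rose, with a median log2 change of -1.43. The counts were the same with the trend removed, where the median was -1.78. Some members, GSC and FGF8 among them, passed the filter only through the APLNR+ libraries. CER1, a secreted antagonist of Nodal, BMP and Wnt that is counted in the endoderm and Nodal lists, had the largest fall of a protein-coding gene, at 2167, 2301 and 2245 FPKM in the APLNR+ libraries and 2.40, 1.52 and 1.56 FPKM in the CD31+CD34+ libraries (log2 difference -9.64 ± 0.13, adjusted p = 2.46e-09). MIXL1, a homeodomain factor of the streak, stood at 48.1, 83.4 and 82.3 FPKM in the APLNR+ libraries and 0.848, 1.28 and 1.16 FPKM in the CD31+CD34+ libraries (log2 difference -5.07 ± 0.21, adjusted p = 2.87e-07). GSC, the organizer homeodomain factor, stood at 23.3, 20.1 and 18.9 FPKM in the APLNR+ libraries and 0.316, 0.0433 and 0.0295 FPKM in the CD31+CD34+ libraries (log2 difference -4.27 ± 0.14, adjusted p = 8.63e-08). EOMES, a T-box factor that starts mesendoderm, stood at 51.5, 58.7 and 59.1 FPKM in the APLNR+ libraries and 4.06, 4.18 and 4.17 FPKM in the CD31+CD34+ libraries (log2 difference -3.48 ± 0.10, adjusted p = 4.51e-08). In each of these 4 genes every mesoderm library was more than 10 times above every CD31+CD34+ library. MESP1 and MESP2, bHLH factors of cardiovascular mesoderm, were lowered from 26.2 to 1.08 FPKM and from 19.3 to 0.832 FPKM. TBXT, listed under its older symbol T, was low already at day 2 and was lowered from 4.44 to 1.06 FPKM. CYP26A1, which breaks down retinoic acid, was lowered from 130.0 to 10.5 FPKM and OTX2, an anterior homeodomain factor, from 32.4 to 4.18 FPKM. Both genes that rose were regulators of cell state: ZEB2, a zinc finger repressor of epithelial genes, stood at 9.75, 13.3 and 12 FPKM in the APLNR+ libraries and 48, 49.3 and 47.3 FPKM in the CD31+CD34+ libraries (log2 difference 1.96 ± 0.12, adjusted p = 1.95e-06), and CDX2, a caudal homeodomain factor, went from 0.674 to 2.36 FPKM (log2 difference 1.03 ± 0.16, adjusted p = 3.36e-04) but was not called without APLNR+ replicate 1 (0.88), without CD31+CD34+ replicate 3 (0.98) or with the trend removed (0.48). Of the other core regulators of the epithelial-mesenchymal transition, SNAI1 and SNAI2 fell, while TWIST1 and ZEB1 were not called. SNAI1 was lowered from 10.3 to 4.35 FPKM (log2 difference -1.10 ± 0.19, adjusted p = 6.70e-04). It was not called without CD31+CD34+ replicate 1 (-0.88) but was lowered with the trend removed (-1.70). SNAI2 was lowered from 10.03 to 2.04 FPKM (log2 difference -1.86 ± 0.13, adjusted p = 4.89e-06), also with the trend removed (-1.13). TWIST1 stood at 1.71, 2.37 and 1.70 FPKM in the APLNR+ libraries and 2.38, 1.27 and 1.26 FPKM in the CD31+CD34+ libraries, and its ranges overlapped. ZEB1 went from 3.56 to 4.33 FPKM and was not called, though it was raised with the trend removed (1.22).

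Lateral plate and cardiac factors divided. Of 26, 18 were tested, 4 rose and 5 fell (median -0.42), so 50% were called beside 32.7% of all genes. With the trend removed, 3 rose and 8 fell. NKX2-5, the cardiac homeodomain factor, rose from 2.77 to 21.7 FPKM (log2 difference 2.59 ± 0.10, adjusted p = 2.27e-07), and GATA5 rose from 0.736 to 5.15 FPKM. GATA6, a factor of heart and lateral mesoderm, was lowered from 42 to 16.3 FPKM, and BMP4, here counted as a lateral plate gene, stood at 94.3, 96.8 and 89.8 FPKM in the APLNR+ libraries and 27.7, 28.4 and 26.8 FPKM in the CD31+CD34+ libraries (log2 difference -1.72 ± 0.09, adjusted p = 7.17e-07). HAND1, a bHLH factor of lateral plate and heart, stood at 36.6, 48.9 and 49.1 FPKM in the APLNR+ libraries and 18.6, 24.8 and 24.5 FPKM in the CD31+CD34+ libraries. Its libraries did not overlap, but its change missed the 2-fold minimum (log2 difference -0.96 ± 0.15, adjusted p = 5.08e-04), and it was called lowered without APLNR+ replicate 1 (-1.09), without CD31+CD34+ replicate 2 (-1.02) or 3 (-1.02), and with the trend removed (-1.54). MSX2, a target of BMP, went from 24.4 to 13.4 FPKM and was not called, and neither was GATA4, from 15.3 to 10.9 FPKM, which was lowered with the trend removed (-1.13). Of the 12 genes of cardiac muscle that were tested, 2 rose and 5 fell, so 58.3% were called beside 32.7% of all genes. MYL7 and NPPB, an atrial light chain and a natriuretic peptide, were lowered from 108 to 23.1 FPKM and from 26.7 to 1.62 FPKM, whereas MYL4, another atrial light chain, rose from 17.8 to 53.9 FPKM.

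Nodal and activin genes fell, and Wnt genes went in both directions. Of 24 genes of Nodal and activin signaling, 17 were tested, 9 fell and 0 rose (median -1.19), and the same counts were found with the trend removed. The ligand NODAL fell from 6.43 to 0.471 FPKM (log2 difference -2.34 ± 0.10, adjusted p = 4.01e-07) and its coreceptor TDGF1 stood at 185, 178 and 178 FPKM in the APLNR+ libraries and 11.1, 12.7 and 12 FPKM in the CD31+CD34+ libraries (log2 difference -3.81 ± 0.09, adjusted p = 2.07e-08). The feedback antagonists LEFTY1 and LEFTY2 were lowered from 15.2 to 0.916 FPKM and from 8.89 to 1.22 FPKM, and FST, which binds activin, from 67.2 to 3.15 FPKM. The signal carriers SMAD2 and SMAD4 went from 57.7 to 36.6 FPKM and from 38.7 to 30.9 FPKM and were not called. Of 65 Wnt genes, 43 were tested, 6 rose and 12 fell (median -0.30), so 41.9% were called beside 32.7% of all genes. With the trend removed, 5 rose and 13 fell. WNT5A, a ligand of the noncanonical branch, stood at 57.7, 48.3 and 47.3 FPKM in the APLNR+ libraries and 2.42, 3.10 and 3.12 FPKM in the CD31+CD34+ libraries (log2 difference -3.75 ± 0.12, adjusted p = 9.75e-08), and WNT11, another such ligand, at 0.590, 0.393 and 0.568 FPKM in the APLNR+ libraries and 22.3, 21.6 and 20.7 FPKM in the CD31+CD34+ libraries (log2 difference 3.90 ± 0.11, adjusted p = 4.07e-08). These noncanonical ligands therefore changed in opposite directions, each with no overlap of libraries. The antagonist DKK1 fell from 65.4 to 3.62 FPKM and the receptors FZD7 and FZD8 from 59.2 to 8.82 FPKM and from 17.5 to 2.70 FPKM, while LGR5, a receptor of R-spondins and Wnt target, fell from 17.9 to 1.33 FPKM. AXIN2, the target most used as a readout of the canonical branch, went from 10.9 to 7.72 FPKM (log2 difference -0.45 ± 0.11, adjusted p = 0.00405) and was not called.

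Among 45 BMP and TGF-beta genes, 39 were tested, 12 rose and 8 fell (median 0.50), so 51.3% were called beside 32.7% of all genes. With the trend removed, 9 rose and 7 fell (median 0.07). BMP2, a ligand, stood at 70.2, 71.5 and 72.1 FPKM in the APLNR+ libraries and 3.77, 3.51 and 3.62 FPKM in the CD31+CD34+ libraries (log2 difference -3.96 ± 0.09, adjusted p = 1.73e-08), so that with BMP4 both major ligands fell. ACVRL1, the ALK1 receptor of endothelium, stood at 3.45, 2.70 and 1.78 FPKM in the APLNR+ libraries and 94.2, 87.5 and 82.1 FPKM in the CD31+CD34+ libraries (log2 difference 4.63 ± 0.17, adjusted p = 1.34e-07). ENG, its coreceptor, rose from 0.662 to 11.9 FPKM, BMP6, a ligand, from 0.133 to 3.37 FPKM and TGFBR2, the type II receptor of TGF-beta, from 1.21 to 6.21 FPKM. BMPR1A, a BMP receptor with a mean of 30.6 FPKM in H1 as well, was lowered from 31.7 to 8.86 FPKM, a call lost with the trend removed (-0.90). The target genes ID1 and ID3 rose from 257 to 543 FPKM and from 53.2 to 135 FPKM but were not called with the trend removed. Of 30 Notch genes, 23 were tested, 8 rose and 2 fell (median 0.38), so 43.5% were called beside 32.7% of all genes. With the trend removed, 9 rose and 3 fell. DLL4, the ligand of arterial tip cells, stood at 0.448, 0.184 and 0.193 FPKM in the APLNR+ libraries and 9.84, 9.68 and 8.55 FPKM in the CD31+CD34+ libraries (log2 difference 3.03 ± 0.12, adjusted p = 2.67e-07). JAG2, another ligand, rose from 1.26 to 28.8 FPKM, NOTCH1, the receptor needed for blood stem cells, from 5.87 to 31.5 FPKM, MFNG, a glycosyltransferase that tunes the receptor, from 0.102 to 30.8 FPKM, and the targets HEY1 and HEY2 from 2.09 to 6.53 FPKM and from 2.37 to 6.52 FPKM. DLL3, the divergent ligand of the paraxial mesoderm, fell from 33.8 to 3.31 FPKM. RBPJ, the DNA-binding partner of all Notch receptors, also fell, at 24.4, 45.4 and 41 FPKM in the APLNR+ libraries and 3.86, 4.97 and 3.48 FPKM in the CD31+CD34+ libraries (log2 difference -2.86 ± 0.22, adjusted p = 7.17e-06; -1.84 with the trend removed), while HEY1 and HEY2 rose. RBPJ has processed copies in the genome, and how reads were shared with them is not given in the sources used here. Of 45 FGF, PDGF and IGF genes, 37 were tested, 12 rose and 6 fell, so 48.6% were called beside 32.7% of all genes. With the trend removed, 11 rose and 5 fell. PDGFRA, the receptor that marks paraxial and lateral mesoderm, was lowered from 18.8 to 4.24 FPKM (log2 difference -1.92 ± 0.10, adjusted p = 1.02e-06), and IGFBP4 and IGFBP2, binding proteins of IGF, rose from 20.2 to 219 FPKM and from 42.2 to 210.3 FPKM. SPRY1, a feedback inhibitor of receptor kinases, rose from 5.71 to 44.2 FPKM.

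**Figure D4:**
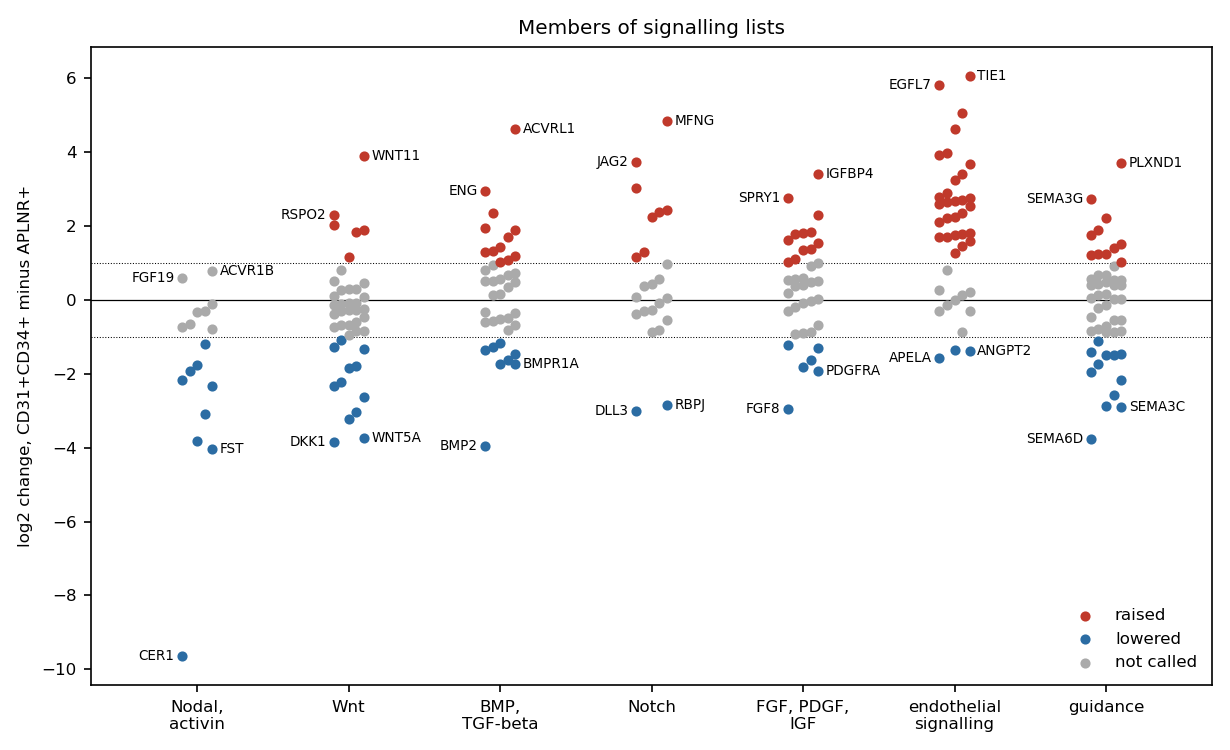
Log2 change (CD31+CD34+ minus APLNR+, y axis) of each tested member of 7 signaling lists, with red for raised, blue for lowered and grey for not called, and dotted lines at the 2-fold minimum. The Nodal list has no raised member, the endothelial list is raised in 29 of 41, and the Wnt and guidance lists spread to both sides.

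Several genes of basement membrane rose, while matrix genes of mesenchyme went in both directions. Of 51 matrix genes, 45 were tested, 20 rose and 7 fell (median 0.79), so 60% were called beside 32.7% of all genes. With the trend removed, 15 rose and 5 fell. COL4A1 and COL4A2, the collagen chains of basement membrane, rose from 26 to 134 FPKM and from 29 to 226 FPKM, HSPG2, perlecan, from 12.5 to 53 FPKM, and NID1 and NID2, nidogens that link collagen to laminin, from 3.71 to 16.2 FPKM and from 1.33 to 14.4 FPKM. FN1, fibronectin, stood at 150.3, 147 and 141 FPKM in the APLNR+ libraries and 555, 661 and 627 FPKM in the CD31+CD34+ libraries (log2 difference 2.06 ± 0.10, adjusted p = 6.23e-07). The laminin chains LAMB1 and LAMC1 went from 28.7 to 44.9 FPKM and from 43.4 to 73.6 FPKM and were not called. POSTN, a matricellular protein of mesenchyme, fell from 22.4 to 0.828 FPKM and COL5A2, a fibril collagen, from 291 to 94.9 FPKM. Fibril collagens did not share a direction, since COL3A1 rose from 0.520 to 24.2 FPKM and COL1A1 from 12.4 to 85 FPKM. Of 30 integrins and adhesion genes, 27 were tested, 10 rose and 7 fell (median 0.05), so 63.0% were called. With the trend removed, 8 rose and 4 fell (median 0.65). ITGA3, a laminin receptor chain, rose from 2.91 to 21.2 FPKM, CD44, the hyaluronan receptor, from 6.95 to 39.7 FPKM, and CDH11, a mesenchymal cadherin, from 85.4 to 199 FPKM. CDH1, E-cadherin, fell from 12.4 to 4.63 FPKM. Of 57 guidance genes, 50 were tested, 11 rose and 12 fell (median 0.03), so 46% were called. With the trend removed, 8 rose and 14 fell (median -0.28). PLXND1, the plexin of endothelium, stood at 24.8, 22.3 and 22.2 FPKM in the APLNR+ libraries and 263, 359 and 328 FPKM in the CD31+CD34+ libraries (log2 difference 3.71 ± 0.13, adjusted p = 1.08e-07), whereas PLXNA2 fell from 59.3 to 9.23 FPKM and the semaphorins SEMA6D and SEMA3C from 29.8 to 1.28 FPKM and from 22.7 to 2.15 FPKM. Of the 32 epithelial genes tested, 2 rose and 6 fell, and 0 rose and 7 fell with the trend removed. The share called, 25%, was below the 32.7% over all genes and is no result about the list. KRT8 and KRT18, keratins of simple epithelia, were at 654 and 619 FPKM in the CD31+CD34+ cells and not called.

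**Figure D5:**
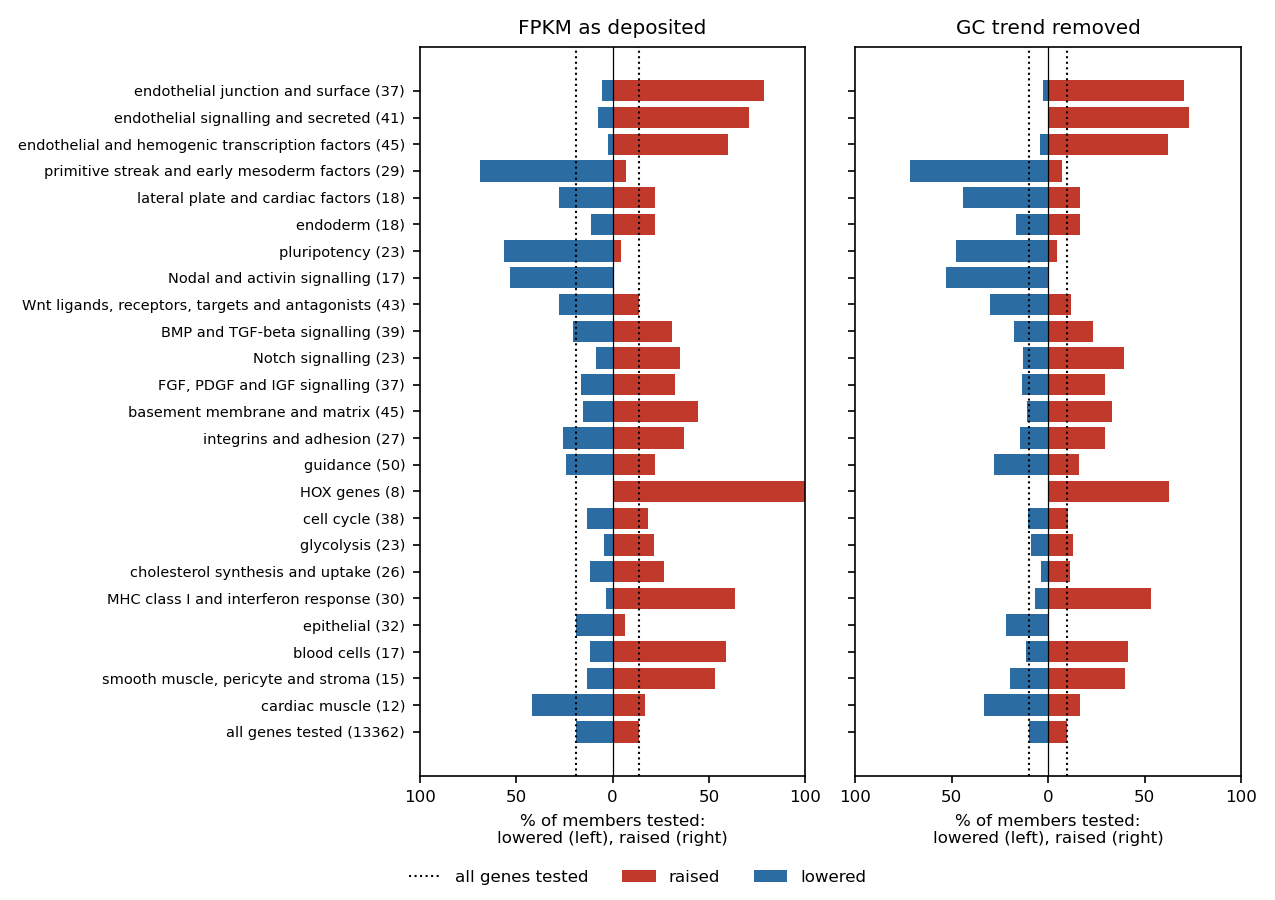
Percent of the tested members of each gene list (number tested in brackets) raised (red, right) and lowered (blue, left) in CD31+CD34+ against APLNR+ cells, for FPKM as deposited and with the GC trend removed, where the members with a GC value are counted. Dotted lines are the shares over all genes tested, 13.8% and 18.9% on the left panel and 9.66% and 10% on the right. The neural list, with 2 genes tested, is left out.

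The HOX genes that were tested all belong to the B cluster. Of 36 HOX genes, 8 were tested, HOXB2 to HOXB9, and all 8 rose, with 5 raised with the trend removed. HOXB4, which expands blood stem cells when forced, stood at 0.138, 0.257 and 0.236 FPKM in the APLNR+ libraries and 2.57, 3.68 and 3.23 FPKM in the CD31+CD34+ libraries (log2 difference 1.77 ± 0.12, adjusted p = 4.05e-06). HOXB9 stood at 0.814, 1.08 and 1.29 FPKM in the APLNR+ libraries and 5.11, 9.68 and 9.33 FPKM in the CD31+CD34+ libraries (log2 difference 2.10 ± 0.22, adjusted p = 3.43e-05), and HOXB6, with a mean of 8.47 FPKM, was the only member above it there. The A cluster, which marks definitive blood stem cells, stayed under 0.2 FPKM on average in the CD31+CD34+ cells for each of its 11 genes in the table, HOXA9 with 0.0944 FPKM among them. Members such as HOXB4 and HOXB8 passed the filter only through the CD31+CD34+ libraries, so the count is a description.

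Genes of antigen presentation and interferon response were higher in the CD31+CD34+ cells. Of 32 genes, 30 were tested, 19 rose and 1 fell (median 1.38), and 16 rose and 2 fell with the trend removed. IFIT1, an RNA sensor, stood at 0.387, 0.262 and 0.368 FPKM in the APLNR+ libraries and 30.1, 41.5 and 41.1 FPKM in the CD31+CD34+ libraries (log2 difference 4.83 ± 0.14, adjusted p = 5.66e-08). ISG15, a ubiquitin-like modifier, stood at 17.5, 13.2 and 10.9 FPKM in the APLNR+ libraries and 459, 383 and 330.0 FPKM in the CD31+CD34+ libraries (log2 difference 4.73 ± 0.18, adjusted p = 1.78e-07). Among MHC class I genes, HLA-E rose from 4.56 to 50.8 FPKM and HLA-B from 12.6 to 39.9 FPKM, where reads can be shared between similar genes and the HLA-B call was lost with the trend removed. IRF1 rose from 3.50 to 25.2 FPKM and TAP1, the peptide transporter, from 0.641 to 6.48 FPKM. B2M, the light chain of class I, went from 116 to 139.7 FPKM and was not called, though it was raised with the trend removed (1.20). The exception OAS1, a sensor of double-stranded RNA, was lowered from 4.20 to 1.17 FPKM.

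Most of the pluripotency genes tested fell. Of 27 pluripotency genes, 23 were tested, 13 fell and 1 rose (median -1.18), and 11 fell and 1 rose with the trend removed. POU5F1, OCT4, still stood at 338, 377 and 346 FPKM in the mesoderm and at 73.9, 92.2 and 86.9 FPKM in the CD31+CD34+ cells (log2 difference -2.06 ± 0.11, adjusted p = 9.95e-07). L1TD1, an RNA-binding protein of stem cells, fell from 66.1 to 1.49 FPKM. NANOG stood at 7.79, 9.66 and 10.5 FPKM in the APLNR+ libraries and 3.21, 5.97 and 4.34 FPKM in the CD31+CD34+ libraries (log2 difference -0.93 ± 0.19, adjusted p = 0.00204) and was called lowered only without APLNR+ replicate 1 (-1.04) or CD31+CD34+ replicate 2 (-1.11) among the fits that left out a library. LIN28A, a regulator of let-7 microRNAs, averaged 178 and 217 FPKM and was not called. SOX2 was at 0.269 FPKM on average in the mesoderm already. THY1, the gene of the list that rose, is also a surface protein of endothelium and stroma and went from 22 to 145 FPKM.

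Of the cell cycle, glycolysis and cholesterol genes tested, 31.6%, 26.1% and 38.5% were called in either direction, shares near the 32.7% of all genes, so the counts are no result about these lists. Of 38 cell cycle genes tested, 7 rose and 5 fell (median -0.12), and 4 rose and 4 fell with the trend removed (median 0.07). CCND1, the D-type cyclin of G1, stood at 40.2, 30.4 and 28.7 FPKM in the APLNR+ libraries and 167, 149 and 139.9 FPKM in the CD31+CD34+ libraries (log2 difference 2.18 ± 0.14, adjusted p = 2.50e-06) and the inhibitor CDKN1C rose from 1.62 to 21.3 FPKM. CDK1 fell from 86.3 to 14.3 FPKM, which was -2.51 on the log2 scale and -1.44 with the trend removed, and TOP2A from 41.8 to 7.30 FPKM. MKI67, the most used marker of cycling cells, went from 10.9 to 6.29 FPKM and was not called, and neither were CCNB1, from 154 to 129.9 FPKM, or PLK1, from 27.5 to 42.5 FPKM. Of 23 glycolysis genes, all tested, 5 rose and 1 fell, and 3 rose and 2 fell with the trend removed. LDHB, a lactate dehydrogenase subunit, stood at 544, 641 and 629.9 FPKM in the APLNR+ libraries and 96.3, 117 and 122 FPKM in the CD31+CD34+ libraries (log2 difference -2.43 ± 0.12, adjusted p = 7.61e-07; -2.22 with the trend removed), while LDHA went from 167 to 97.7 FPKM and was not called. PFKP rose from 46.6 to 149 FPKM. Of 26 cholesterol genes, all tested, 7 rose and 3 fell, and 3 rose and 1 fell with the trend removed. FDFT1, squalene synthase, rose from 163 to 371 FPKM and IDI1, an isomerase of the same pathway, fell from 77.7 to 20.2 FPKM, and both were called in either fit.

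Markers of other cell types that the gate could hold were measured beside these groups. Of 39 genes of differentiated blood, 17 were tested, 10 rose and 2 fell (7 and 2 with the trend removed). LAPTM5 and VAV1, which blood cells share, rose from 0.0630 to 21.3 FPKM and from 0.0555 to 13.5 FPKM, and SPN, which encodes the CD43 antigen of the next population, from 0.184 to 3.70 FPKM. CD48, a surface protein of leukocytes, fell from 8.06 to 0.0319 FPKM (log2 difference -3.13 ± 0.11, adjusted p = 1.07e-07; -2.41 with the trend removed). GYPB, a glycophorin of red cells, fell from 6.96 to 2.73 FPKM (log2 difference -1.26 ± 0.39, adjusted p = 0.0169) in libraries that overlapped, and was not called without CD31+CD34+ replicate 1 (-0.84) or with the trend removed (-0.50). The defining marker PTPRC, which encodes CD45, was listed at 0 in all 3 CD31+CD34+ libraries, as were HBA1 and ELANE, and MPO averaged 0.00723 and HBB 0.134 FPKM. An exact 0 in this table can be a failed estimate, so these zeros do not show absence. The summed FPKM of the 39 genes ran from 38.7 to 47.4 in APLNR+ and from 98.7 to 126 in CD31+CD34+ libraries. Of 18 genes of smooth muscle, pericytes and stroma, 15 were tested, 8 rose and 2 fell (6 and 3 with the trend removed). ACTA2, smooth muscle actin, rose from 1.53 to 13.3 FPKM and RGS5, of pericytes, from 51.3 to 250.5 FPKM, whereas MYH11, the defining myosin, averaged 0.00453 FPKM and TAGLN went from 466 to 274 FPKM and was not called, though it was lowered with the trend removed (-1.29). Their summed FPKM ran from 647 to 784 in APLNR+ and from 1057 to 1189.6 in CD31+CD34+ libraries. Of 30 endoderm genes, 18 were tested, 4 rose and 2 fell (median 0.20; 3, 3 and -0.14 with the trend removed), with APOA1 from 1.40 to 11 FPKM and FOXA2 at 0.899 FPKM in the CD31+CD34+ cells, and ALB and TTR averaged 0.0436 and 0.205 FPKM there. The 2 that fell were CER1, from 2238 to 1.83 FPKM, and CPE, from 24.8 to 4.10 FPKM. Summed FPKM of the 30 genes, CER1 included, ran from 3371 to 3569 in APLNR+ and from 1499 to 1684 in CD31+CD34+ libraries. The share of endoderm genes called, 33.3%, was near the 32.7% over all genes and is no result about the list. Of 16 neural genes, 2 were tested, of which TUBB3, a tubulin, rose from 44.8 to 96.6 FPKM but was not called without APLNR+ replicate 3 (0.98) or with the trend removed, and PAX6 and SOX1 averaged 0.00200 and 0 FPKM. The part of other cells in the matrix, cardiac and blood values was not tested.

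Further genes were among the 15 largest changes without belonging to a list. GNG11, a G protein gamma subunit of endothelium and platelets, stood at 1.55, 1.24 and 1.19 FPKM in the APLNR+ libraries and 186, 171 and 168 FPKM in the CD31+CD34+ libraries (log2 difference 6.24 ± 0.10, adjusted p = 5.04e-09). FCN3, a lectin of the complement system, stood at 0.119, 0.118 and 0.0362 FPKM in the APLNR+ libraries and 53.8, 59.5 and 53.5 FPKM in the CD31+CD34+ libraries (log2 difference 5.70 ± 0.10, adjusted p = 7.90e-09). SOST, sclerostin, an inhibitor of Wnt known from bone, stood at 0.0807, 0.0379 and 0.0488 FPKM in the APLNR+ libraries and 43.3, 50.6 and 46.2 FPKM in the CD31+CD34+ libraries (log2 difference 5.50 ± 0.11, adjusted p = 1.03e-08), and its mean of 0.708 FPKM in CD43+ cells and 0.0652 FPKM in H1 leaves the CD31+CD34+ libraries as the only ones of the 12 with a high level. On the falling side GRP, gastrin-releasing peptide, stood at 107, 121 and 116 FPKM in the APLNR+ libraries and 0.969, 0.912 and 1.58 FPKM in the CD31+CD34+ libraries (log2 difference -5.76 ± 0.13, adjusted p = 2.02e-08). FABP5, a fatty acid carrier with many processed copies that could share its reads, stood at 253, 269.8 and 289.6 FPKM in the APLNR+ libraries and 11.7, 12.9 and 14.8 FPKM in the CD31+CD34+ libraries (log2 difference -4.27 ± 0.11, adjusted p = 3.12e-08). MFAP4, a microfibril protein, fell from 64.6 to 1.00 FPKM, CNKSR3, a scaffold of kinase signaling, from 69.1 to 1.74 FPKM, LZTS1, a leucine zipper protein, from 53.8 to 1.75 FPKM, ATP12A, a proton pump subunit, from 34.6 to 0.862 FPKM, and CA12, a carbonic anhydrase, from 24.9 to 0.852 FPKM. Non-overlap of libraries was a condition for choosing these genes, and each kept its call with the trend removed.

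The 6 libraries differed in ways the populations do not explain. Genes of small RNAs held 10.4% to 73.8% of the summed FPKM of a library, and the relative depth, estimated from the steps of low values, ran from 0.50 to 1.13 of that of CD31+CD34+ replicate 3. Replicate 1 was lowest in both populations, with 0.67 in APLNR+ beside 1.02 and 1.11, and 0.50 in CD31+CD34+ beside 1.13 and 1. Pearson's r of log2 values over the tested genes was 0.968 to 0.986 within a population and 0.766 to 0.812 between them, a description across genes that are not independent. Within a population it was highest between replicates 2 and 3, at 0.985 in APLNR+ and 0.986 in CD31+CD34+. EEF1A1, a translation factor of every cell, was listed at 3108, 0 and 0 FPKM in APLNR+ and at 1839, 2329 and 2301 FPKM in CD31+CD34+ libraries, so an exact 0 in this table can be a failed estimate. EEF1A1 counts among the 1850 raised genes although its libraries overlapped. Replicates 2 and 3 alone gave 1980 raised and 2579 lowered genes.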

How the data were processed

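Total RNA was extracted with Trizol from H1 cells and sorted populations, and Illumina TruSeq libraries were sequenced. Expression came as FPKM per gene, which the authors deposited in 1 table for all samples. The submitters' processing notes name hg19, BWA, Bowtie and RSEM, without roles. The gene annotation and strand setting are not given in the sources used here, so overlapping, antisense and near-identical genes are uncertain. No read counts were used, and FPKM gives no absolute depth. Sequencing was done at more than 1 company, and the libraries each took are not given in the sources used here.

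Genes with at least 1 FPKM in at least 3 of the 6 libraries were tested on log2(FPKM + 1) with limma 3.58.1 (R 4.3.3, trend, Benjamini-Hochberg). For a repeated symbol the row with the highest mean was kept. On simulated data, 192 of 200 changed genes were called for this comparison over 13362 genes, 0 with the wrong sign, and 2 unchanged genes were called. The simulated noise was independent between genes and held no GC trend, so these counts do not measure how reliable the calls in the data are. GC content is that of the longest GENCODE 29 transcript of a symbol, protein-coding where there is one. The fit that removed it (loess, span 0.3) was chosen after the data were seen. Promoters and motifs were read with Python 3.11.15 from RefSeq windows, the first listed where a gene has several, and CDH5 had none in the table.

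Members and lists were chosen with earlier results of these data known. Named were the markers, the 15 largest rises and 15 largest falls of protein-coding genes without overlap and with a higher mean of at least 10 FPKM, up to 4 members of each list in each direction with defining members that were not called, genes the study names, and genes listed at 0 in a whole population with at least 100.0 FPKM in the other. Further genes were chosen after their values were seen. Alternatives covered pseudocounts, filters, scalings, thresholds, covariates and the leaving out of each library.

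A few items are not reported here.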

Additional observations from a re-analysis of the deposited data

How the results depend on the processing

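Across 23 alternatives the 6 markers kept their call in all 137 values and the raised ones their direction, while APLNR, never called, turned to -0.14 with quantile normalization and to -0.42 with the GC trend removed. Of 3918 values of 172 other named genes, 3772 kept the call, 125 lost it, 21 gained it and 0 turned direction where called, and of 1778 values of 78 further genes, 1722 kept it, 36 lost it, 20 gained it and 0 turned where called. Removal of the GC trend alone took the call from 32 of the 172 and from 7 of the 78. The 1850 raised and 2519 lowered genes (42.3% raised) became 1271 and 1318 (49.1%) with the GC trend removed. A mean of at least 5 FPKM left 1638 lowered genes (45.1% raised), where fewer genes were tested and the median change over all genes was 0.13 on the log2 scale. The raised share was 39.2% with upper-quartile scaling, 45.1% with quantile normalization and 44.0% over protein-coding genes only, and for these the cause was not tested. Without a minimum change 5031 rose and 5166 fell (49.3%), and with one of 4-fold 436 and 442 (49.7%), by construction of the threshold. Leaving out each library in turn gave 1762 to 1945 raised and 2385 to 2687 lowered genes, with a share of 40.7% to 44.9%. Same-numbered libraries deviated together with correlations of 0.23, 0.05 and 0.16, so the numbers were not taken as pairing. With replicate number as a block 1852 genes rose and 2527 fell, and 172 of 172 named genes and 6 of 6 markers kept their call. FPKM without read counts gives no interval for counting error, and 3 libraries of each population limit the precision. The separate fits for neighbouring steps share libraries with the comparison.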

Other observations

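Several genes outside the lists also separated the populations without overlap of libraries, and they were chosen after their values were seen. NTS, which encodes the peptide neurotensin, stood at 845, 961 and 998 FPKM in the APLNR+ libraries and 64.7, 74.5 and 78.4 FPKM in the CD31+CD34+ libraries (log2 difference -3.67 ± 0.11, adjusted p = 6.51e-08, limma). HAS2, the main hyaluronan synthase of mesoderm and heart cushions, stood at 121, 152 and 155 FPKM in the APLNR+ libraries and 9.94, 13.2 and 13.4 FPKM in the CD31+CD34+ libraries (log2 difference -3.45 ± 0.14, adjusted p = 2.94e-07). Both fell, and both kept the call with the GC trend removed. GAD1, which makes the transmitter GABA from glutamate, stood at 6.58, 6.12 and 5.47 FPKM in the APLNR+ libraries and 169, 186 and 168 FPKM in the CD31+CD34+ libraries (log2 difference 4.64 ± 0.10, adjusted p = 1.57e-08) and averaged 272 FPKM in CD43+ cells against 0.250 FPKM in H1. CLEC11A, a growth factor for blood progenitors, stood at 1.86, 1.65 and 1.97 FPKM in the APLNR+ libraries and 127, 112 and 101 FPKM in the CD31+CD34+ libraries (log2 difference 5.33 ± 0.11, adjusted p = 1.57e-08) and averaged 199 FPKM in CD43+ cells. CST1, a secreted cysteine protease inhibitor, stood at 2.61, 3.37 and 3.02 FPKM in the APLNR+ libraries and 88, 165 and 154 FPKM in the CD31+CD34+ libraries (log2 difference 5.05 ± 0.22, adjusted p = 3.86e-07) and was back at 2.69 FPKM in CD43+ cells. S100A4, a calcium-binding protein of motile cells, rose from 25.9 to 345 FPKM and LGALS1, galectin 1, from 44.8 to 522 FPKM. All 5 raised genes kept the call with the trend removed.

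Some values set single loci apart. RPPH1, the RNA of ribonuclease P, stood at 88029, 85868 and 60287 FPKM in the APLNR+ libraries and was listed at 0 in all CD31+CD34+ and CD43+ libraries. AL355075.4, an antisense gene that overlaps it, stood at 9212, 3489.8 and 2562 FPKM in the APLNR+ libraries. PARP2, a DNA repair gene whose start overlaps AL355075.4 on the other strand, stood there at 5.93, 7.91 and 8.29 FPKM. Both were also listed at 0 in the CD31+CD34+ and CD43+ libraries. In H1, RPPH1 stood at 81663, 65612 and 78768 FPKM, AL355075.4 at 9355, 2757 and 3387 FPKM and PARP2 at 7.43, 10.1 and 10.6 FPKM. These zeros thus divided H1 and APLNR+ from CD31+CD34+ and CD43+ libraries. The GC trend was also larger between APLNR+ and CD31+CD34+ cells than in the neighbouring steps. The cause of either was not tested. In GENCODE 29 on GRCh38, RPPH1 lies at chr14:20343075-20343407 on the minus strand, AL355075.4 at chr14:20343048-20343685 on the minus strand and PARP2 at chr14:20343582-20357905 on the plus strand. A ribozyme and a repair gene of general use at exact 0 may be failed estimates, so no fold is given. In all, 19 tested genes were listed at 0 in every CD31+CD34+ library and 4 in every APLNR+ library. RPS24, a ribosomal protein gene with processed copies that could share its reads, stood at 1546, 1691 and 1659.9 FPKM in the APLNR+ libraries and 174, 215 and 216 FPKM in the CD31+CD34+ libraries (log2 difference -3.02 ± 0.11, adjusted p = 1.86e-07). Among the called genes, 23 lincRNAs rose and 66 fell, and 2 processed pseudogenes rose and 43 fell. Over all genes tested, 13.8% rose and 18.9% fell. These counts stand without the number of each type tested, and the GC trend was kept in them. They are no result about the types.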
